A study of Rattus norvegicus with 16 samples.

Results

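A set of 6 genes of macrophage fusion and of osteoclast-type resorption, Dcstamp, Ocstamp, Atp6v0d2, Ctsk, Mmp12 and Spp1, was followed through bulk RNA sequencing of the infarct zone of rat hearts. They were taken by gene name from the count and TPM tables, and make 6 of the 17085 genes measured. All 6 passed the filter on low counts, which 11376 genes passed. They were selected on measured differences between these same groups, so their levels, differences and counts of calls below are a description and no test is given for them.

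The study holds 16 libraries in 4 groups of 4. Sham rats had control surgery without ligation, and the labels name their sampled tissue as infarct zone too. MI rats had the left anterior descending coronary artery tied off. MI_soft and MI_stiff rats had the same ligation and were given an injection of hydrogel, a polymer that holds water, into the heart muscle, in a soft form or a stiff one, so the MI group is untreated infarct and no group received a gel without ligation. The label for RNA extraction also writes MI/R, which often means infarction followed by reperfusion, and the sources used here do not say whether flow was restored. Strain, age, sex, gel material and the day of sampling are likewise not given there. Separate animals are not stated for the libraries in a group, so every p-value below reflects sample-to-sample spread that may be technical.

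Macrophages can fuse into multinucleated cells. In bone the fused cell is the osteoclast, which acidifies a sealed space with a vacuolar proton pump (V-ATPase) and digests matrix with secreted proteases, and around implanted material it is the foreign body giant cell. DC-STAMP and OC-STAMP, the products of Dcstamp and Ocstamp, are membrane proteins needed for fusion in both settings. Atp6v0d2 encodes the osteoclast-enriched form of the pump's d subunit, Ctsk encodes cathepsin K, a collagen-degrading protease, Mmp12 encodes macrophage elastase, and Spp1 encodes osteopontin, a secreted protein that binds integrins and CD44. Ctsk and Spp1 are also made by cells other than macrophages, fibroblasts among them. In osteoclasts the cytokine RANKL, acting through its receptor RANK, induces the transcription factor NFATc1, which with AP-1, PU.1 and MITF switches on several of these genes.

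Promoter windows of 4 of the 6 genes, Ocstamp, Ctsk, Mmp12 and Spp1, were matched in RefSeq on the GRCr8 assembly, each from 250 bases before to 50 after the start of the gene. The windows of Mmp12 and Ctsk are shown because each holds letters that match motifs of these factors, and because these are the 2 proteases of the set. Capitals mark the matches, and positions count from the annotated start site.
Mmp12, chr8:12866402-12866701, plus strand: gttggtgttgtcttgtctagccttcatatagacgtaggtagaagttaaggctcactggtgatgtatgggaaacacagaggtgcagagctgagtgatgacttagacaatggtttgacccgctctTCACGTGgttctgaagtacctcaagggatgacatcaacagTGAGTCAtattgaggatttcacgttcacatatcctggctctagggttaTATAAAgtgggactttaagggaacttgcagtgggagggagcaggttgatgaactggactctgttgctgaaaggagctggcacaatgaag
Ctsk, chr2:185747298-185747597, plus strand: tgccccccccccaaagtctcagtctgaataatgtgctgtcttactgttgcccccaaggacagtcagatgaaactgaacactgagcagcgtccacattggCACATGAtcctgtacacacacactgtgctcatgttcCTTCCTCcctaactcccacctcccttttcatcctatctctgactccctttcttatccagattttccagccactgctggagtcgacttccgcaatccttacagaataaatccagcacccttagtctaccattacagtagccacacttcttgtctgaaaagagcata
In Mmp12 the capitals mark, from the 5′ end, an M-box (TCANGTG, the MITF motif) starting at -127, an AP-1 match (TGANTCA) at -87 and a TATA box (TATAAA) at -39. In Ctsk they mark an M-box on the minus strand at -151 and a PU.1 match (GAGGAAG) on the minus strand at -115. Of 33469 RefSeq windows of the same length, 7.33% held the AP-1 letters, 13.4% the M-box, 12.4% the PU.1 letters and 14.2% the TATA box, with both strands searched. The NFAT core (GGAAA) was in all 4 windows, and in 62.7% of all windows, so it is not marked. In Ocstamp no motif but the NFAT core matched, and Spp1 held besides it only a TATA box at -204. A match is a description of letters and not a bound site.

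Library totals were between 10940685 and 14456186 counts, and genes with a count numbered 10470 to 12820. They were fewest in MI 2, MI 3, MI 4 and MI_soft 4, each under 12000. Each level is in CPM, the count relative to the TMM-scaled library size, and between genes in TPM, which corrects for gene length. Cardiomyocyte markers were present throughout, with a mean log2 CPM over 12 genes between 9.97 and 11.8 in the 16 libraries. The mean log2 CPM of 17 general macrophage markers was 3.21 to 3.28 over the Sham libraries, 4.30 to 5.94 over MI, 5.45 to 6.55 over MI_soft and 4.83 to 5.95 over MI_stiff. In MI the 5.94 belonged to MI 1, and the other 3 MI libraries were at 4.30 to 4.43. In bulk tissue, fewer cells of a type and less RNA per cell cannot be told apart.

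Both fusion genes were absent from the counts of every Sham library and highest in the stiff gel. Dcstamp was at 0 in the 4 Sham libraries and in 3 of 4 MI libraries, with 0.246 CPM (4 counts) in MI 1. MI 2, 3 and 4, at 0 for Ocstamp and Atp6v0d2 too, had 10470, 10958 and 11283 genes with a count, and MI 1 had 12820. The part of gene detection in these zeros was not tested. Dcstamp measured 1.64, 1.98, 0.595 and 1.34 CPM in MI_soft 1 to 4, and 9.03, 1.77, 4.99 and 9.81 CPM in MI_stiff 1 to 4. Every library with a gel thus lay above every MI library, and MI_stiff 2 alone of its group fell within the range of MI_soft. The group means were 0.0615 ± 0.123 CPM for MI, 1.39 ± 0.590 for MI_soft and 6.40 ± 3.74 for MI_stiff (SD, n = 4 each).

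Ocstamp followed the same order with a wider spread. It had no count in Sham or in MI 2, 3 and 4, and 0.861 CPM (14 counts) in MI 1. It measured 2.61, 3.42, 0.595 and 0.836 CPM in MI_soft 1 to 4 and 12.6, 0.483, 23.1 and 15.2 CPM in MI_stiff 1 to 4. MI_stiff 2 was below all 4 MI_soft libraries and below MI 1, whereas the other 3 stiff-gel libraries were above every other library. The means were 0.215 ± 0.430, 1.87 ± 1.37 and 12.9 ± 9.37 CPM in MI, MI_soft and MI_stiff (SD, n = 4 each).

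Atp6v0d2, the pump subunit, was detected where the fusion genes were. It had no count in Sham or in MI 2, 3 and 4, and 1.97 CPM (32 counts) in MI 1. It measured 3.21, 9.66, 3.30 and 4.68 CPM in MI_soft and 16.3, 3.30, 13.6 and 13.4 CPM in MI_stiff, libraries 1 to 4 in turn. Both gel groups lay wholly above MI and overlapped each other only through MI_stiff 2. The means were 0.492 ± 0.983 for MI, 5.21 ± 3.04 for MI_soft and 11.6 ± 5.72 CPM for MI_stiff (SD, n = 4 each). Its paralogue Atp6v0d1, the d subunit of most tissues, stood far higher, at 46.0 TPM in Sham and 79.9, 87.8 and 80.1 TPM in MI, MI_soft and MI_stiff, against 0, 0.53, 4.09 and 10.7 TPM for Atp6v0d2. In the stiff gel the osteoclast-enriched form was below the common form per length. Atp6v0d1 rose by 0.71 ± 0.22 in MI against Sham (adjusted p = 0.0178, edgeR) and differed by -0.23 ± 0.22 in MI_stiff minus MI (adjusted p = 0.61).

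Mmp12 covered the widest range of the 6. It had no count in Sham, and 19.8, 1.59, 4.03 and 1.002 CPM in MI 1 to 4. It measured 71.1, 265, 67.1 and 65.7 CPM in MI_soft 1 to 4 and 665, 146, 785 and 646 CPM in MI_stiff 1 to 4. All 8 gel libraries were above all 4 MI libraries, and the stiff and soft gels overlapped in 1 place, since MI_soft 2 was above MI_stiff 2. The means were 6.61 ± 8.89 for MI, 117 ± 98.5 for MI_soft and 561 ± 283 CPM for MI_stiff (SD, n = 4 each). Single libraries carried part of these: without MI 1 the MI mean was 2.21 CPM, and without MI_soft 2 the soft-gel mean was 68.0 CPM.

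Ctsk and Spp1 differed from the other 4 in being present in every Sham library, and both were high in every untreated infarct. Ctsk measured 8.47, 11.9, 12.03 and 10.9 CPM in Sham and 97.4, 100.1, 85.0 and 112.8 CPM in MI, libraries 1 to 4 in turn. It measured 93.1, 149, 100.8 and 139 CPM in MI_soft and 342, 123, 181 and 338 CPM in MI_stiff. The MI and MI_soft ranges overlapped, MI_stiff lay above all MI libraries, and MI_stiff 2 was within the MI_soft range. The means were ordered as Sham (10.8 ± 1.65), MI (98.8 ± 11.4), MI_soft (120.5 ± 27.6) and MI_stiff (246 ± 111 CPM; SD, n = 4 each), and MI and MI_soft did not differ beyond their spread.

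Spp1 had 1.71, 0.851, 0.932 and 1.03 CPM in Sham and 44.2, 84.5, 53.9 and 120 CPM in MI. It had 83.0, 198, 161 and 40.2 CPM in MI_soft and 408, 95.1, 600 and 292 CPM in MI_stiff. Its soft-gel libraries spread around those of MI on both sides, and MI_stiff 2 was below MI 4, so that no pair of infarcted groups was separate. The means were 1.13 ± 0.393 for Sham, 75.7 ± 34.3 for MI, 121 ± 72.0 for MI_soft and 349 ± 212 CPM for MI_stiff (SD, n = 4 each). Per length Spp1 was the most abundant of the 6 in each group but Sham, where Ctsk led with 7.08 TPM against 2.77. In MI_stiff, Spp1 averaged 1021 TPM, Mmp12 396, Ctsk 204, Atp6v0d2 10.7, Ocstamp 10.3 and Dcstamp 5.40, so the fusion genes and the pump subunit were far less abundant than the secreted products. Spp1 ranked 39th by TPM among all genes of MI_stiff 3.

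**Figure D1:**
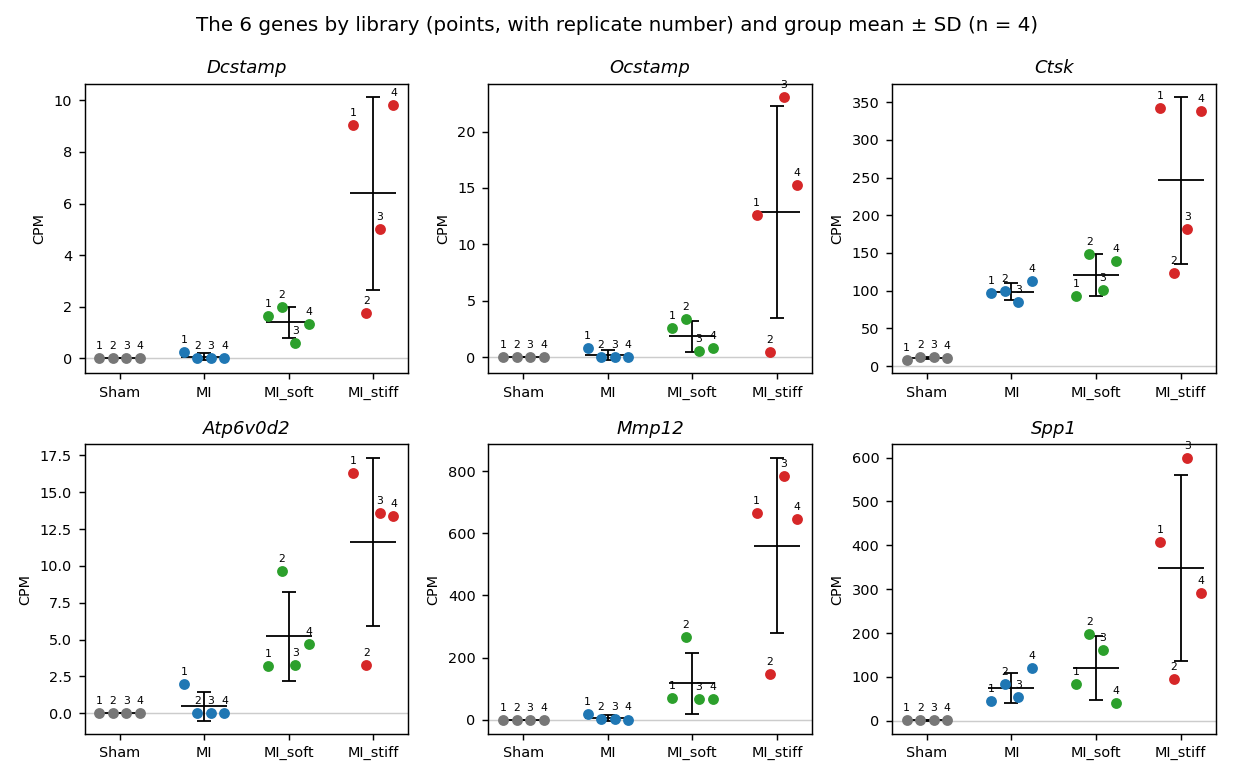
CPM (linear axis from 0) of the 6 genes in each of the 16 libraries, grouped as Sham, MI, MI_soft and MI_stiff; points are libraries with their replicate number, and bars are mean ± SD (n = 4). MI_stiff 2 is the lowest of its group in all 6 panels, and Dcstamp, Ocstamp and Atp6v0d2 are at 0 in MI 2, 3 and 4.

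Against Sham, the infarct alone went with higher Ctsk and Spp1. Ctsk was higher in MI by 3.19 ± 0.30 and Spp1 by 6.04 ± 0.64 on the log2 scale (difference ± SE of the edgeR fit). The genes with no count in Sham have only lower bounds, set against a floor of 3 counts over the Sham group: Mmp12 was at least 108-fold higher in MI, or at least 36.0-fold without MI 1. Atp6v0d2 was at least 8.02-fold higher in MI, from counts of MI 1 alone. Ocstamp and Dcstamp counts in MI also came from MI 1 alone, and of the 6 genes 4 were called (Ctsk, Atp6v0d2, Mmp12 and Spp1; adjusted p under 0.05 over all tested genes), beside 36.6% of all tested genes. The call of Atp6v0d2 was lost without MI 1, where the group is at 0, and without any 1 of the 4 Sham libraries.

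With either gel all 6 genes were called higher than in Sham, beside 26.1% of tested genes called for MI_soft and 21.2% for MI_stiff. MI_soft was at least 22.6-fold higher for Dcstamp, 30.5-fold for Ocstamp, 85.0-fold for Atp6v0d2 and 1912-fold for Mmp12, against the same floor. MI_stiff was higher by at least 104-fold, 210-fold, 190-fold and 9143-fold in the same order. Ctsk was higher than in Sham by 3.48 ± 0.30 with the soft and 4.51 ± 0.32 with the stiff gel, and Spp1 by 6.72 ± 0.66 and 8.25 ± 0.69 (log2 ± SE). The 3 comparisons share the Sham libraries, so they are set side by side and not counted together.

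Between the soft gel and the untreated infarct the 6 genes split by the level they had in MI. The log2 difference, MI_soft minus MI, was 4.07 ± 0.98 for Dcstamp, 2.88 ± 1.18 for Ocstamp, 3.25 ± 1.04 for Atp6v0d2 and 4.11 ± 0.85 for Mmp12, but 0.29 ± 0.27 for Ctsk and 0.67 ± 0.49 for Spp1 (SE). Dcstamp, Atp6v0d2 and Mmp12 were above MI in every MI_soft library, which held for 2.55% of tested genes. Even so, edgeR called 0 of the 6 (0.0264% of all tested genes were called). At an unadjusted p under 0.05 it took 4 of the 6 and 15.5% of tested genes, and DESeq2 called Mmp12 only, with no adjusted p for 3 of the 6, beside 3.64% of genes. Without MI 1, the MI library with macrophage markers at 5.94, 4 of the 6 were called (Dcstamp, Ocstamp, Atp6v0d2 and Mmp12), but so were 13.1% of all tested genes.

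Between the stiff gel and the untreated infarct the differences were larger for each gene. They were 6.27 ± 1.02 for Dcstamp, 5.66 ± 1.26 for Ocstamp, 4.41 ± 1.08 for Atp6v0d2, 6.37 ± 0.94 for Mmp12, 1.32 ± 0.28 for Ctsk and 2.20 ± 0.51 for Spp1 (log2, MI_stiff minus MI, SE). In 4 of the 6, Dcstamp, Ctsk, Atp6v0d2 and Mmp12, every stiff-gel library exceeded every MI library, as in 3.97% of tested genes. EdgeR called 5 of the 6, leaving out Atp6v0d2, while it called 1.19% of tested genes, and DESeq2 called all 6 beside 5.13%.

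These 5 calls changed with the libraries in the fit. Mmp12 was called in all 16 fits that left out 1 library. Ocstamp and Spp1 were not called without Sham 1, Sham 3, Sham 4, MI 3, MI_soft 1, MI_soft 2 or MI_soft 3, which left 3 of the 6, and Ctsk also was not without Sham 2, MI 2, MI_stiff 1, MI_stiff 3 or MI_stiff 4, which left 2. Without MI 4 only Mmp12 was called. All 6 were called without MI 1 (10.9% of tested genes) or without MI_soft 4 (4.62%), and 5 without MI_stiff 2. Leaving out the libraries with under 12000 genes detected keeps MI 1 as the only MI library, and then 0 of the 6 were called, beside 1.78% of tested genes. Against MI 1 alone, which is assumed in that fit to vary like the other groups, the differences were 4.65 ± 1.22 for Dcstamp, 3.90 ± 1.94 for Ocstamp, 2.56 ± 0.95 for Atp6v0d2, 4.83 ± 1.51 for Mmp12, 1.34 ± 0.48 for Ctsk and 2.99 ± 0.92 for Spp1 (log2 ± SE), all in the same direction.

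Between the 2 gels all 6 genes had the higher mean with the stiff gel, and none was called. The log2 difference, MI_stiff minus MI_soft, was 2.20 ± 0.78 for Dcstamp, 2.78 ± 1.05 for Ocstamp, 1.16 ± 0.92 for Atp6v0d2, 2.26 ± 0.77 for Mmp12, 1.03 ± 0.28 for Ctsk and 1.53 ± 0.50 for Spp1 (SE). EdgeR called 0.0967% of tested genes. At an unadjusted p under 0.05 it took 5 of the 6, all but Atp6v0d2, and 14.3% of tested genes, and DESeq2 called Ctsk and Spp1, gave no adjusted p for 2 of the 6, and called 3.19% of genes. For 0 of the 6 did every stiff-gel library lie above every soft-gel library, which 4.47% of tested genes did. A p that misses the threshold does not show that the gels gave equal levels.

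**Figure D2:**
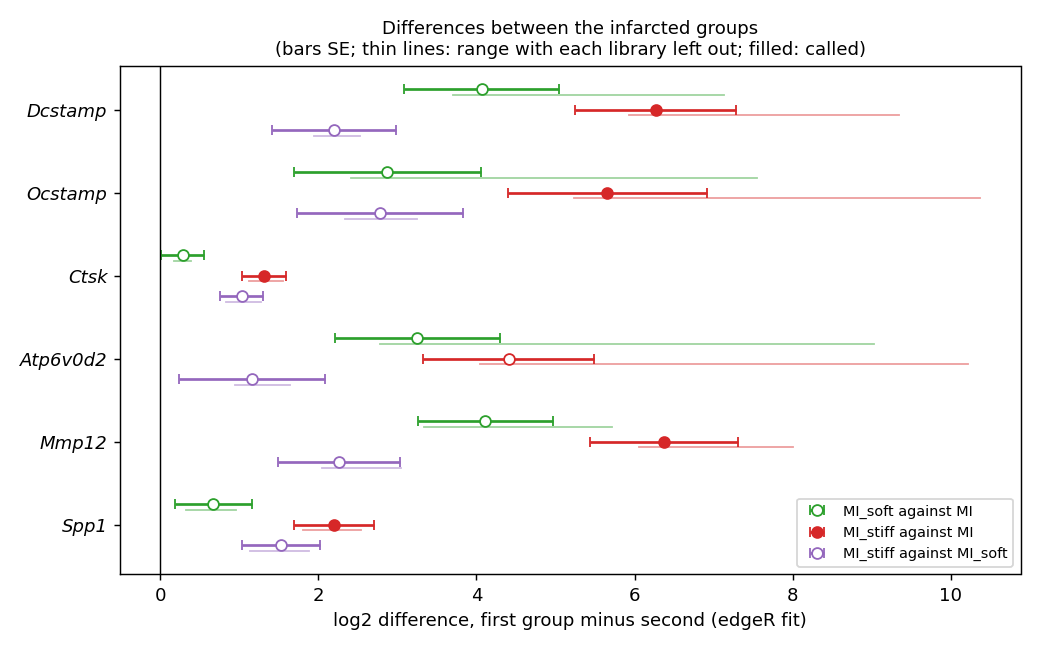
Log2 differences of the 6 genes between the infarcted groups, with SE bars; thin lines give the range when each library is left out in turn, and filled points were called by edgeR. The range for Dcstamp, Ocstamp, Atp6v0d2 and Mmp12 against MI extends far to the right because leaving out MI 1 leaves the MI group at 0 or near 0.

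For Dcstamp and Mmp12 the overlap between the gels was between MI_stiff 2 and MI_soft 2, since the next soft-gel library, at 1.64 and 71.1 CPM, was below the 1.77 and 146 CPM of MI_stiff 2. For the other 4 genes MI_stiff 2 was below at least 2 soft-gel libraries. MI_stiff 2 was the lowest of its group for 6 of the 6 genes, and it was the lowest for 24.5% of tested genes. MI_stiff 1, 3 and 4 each lay above every MI_soft library for all 6, as did 5.75% of tested genes. Without MI_stiff 2 the stiff-gel means were 7.94 CPM for Dcstamp, 16.98 for Ocstamp, 14.4 for Atp6v0d2, 699 for Mmp12, 287 for Ctsk and 433 for Spp1 (n = 3), yet 0 of the 6 were called against the soft gel, beside 0.0866% of tested genes. Its macrophage markers were also the lowest of MI_stiff, at 4.83 against 5.87 to 5.95 in the other 3 libraries. The part of that in the levels of the 6 genes was not tested. In the soft gel MI_soft 2 was highest for 6 of the 6, and it was highest for 18.6% of tested genes. In the untreated infarct MI 1 was highest for 4 of the 6 (32.4% of tested genes), while Ctsk and Spp1 were highest in MI 4.

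The levels were then set against the macrophage markers of the same library. Of the 17 markers tested, 13 rose in MI, 15 in MI_soft and 16 in MI_stiff against Sham, beside 36.6%, 26.1% and 21.2% of all tested genes called in these comparisons, and 0 were called in any comparison between infarcted groups by edgeR. At an unadjusted p under 0.05 it took 13 in MI_soft against MI, 6 in MI_stiff against MI and 3 in MI_stiff against MI_soft. Of these 13, 5 and 0 were higher, and the shares of all tested genes were 15.5%, 17% and 14.3%. DESeq2 called 3, 5 and 0, of which 3, 4 and 0 were higher, beside 3.64%, 5.13% and 3.19%. Their median difference between the gels was -0.52 (log2, MI_stiff minus MI_soft). Over 11 tested genes of lipid-laden macrophages the mean log2 CPM was 6.16 in MI_soft and 6.70 in MI_stiff (SD 0.23 and 0.44). Between the gels edgeR called 0 of these 11 and took 3 at an unadjusted p under 0.05, all higher, beside 14.3% of tested genes. DESeq2 called 1, Gpnmb, which was higher, beside 3.19%. Lymphocyte markers, 11 tested, had a mean log2 CPM of 2.71 ± 0.85 in MI_soft and 0.44 ± 0.70 in MI_stiff (SD, n = 4 each), with no overlap between the gels. Smooth muscle markers, 6 tested, were separate in the same direction, at 6.85 to 7.18 over MI_soft and 6.10 to 6.45 over MI_stiff. The share of tested genes separate in that direction was not computed. In MI_stiff against MI 2 of these markers, Tagln and Cnn1, were called lower, beside 1.19% of all tested genes called. Dendritic cell markers, 5 tested, were at 1.72 to 2.11 over Sham, 0.43 to 0.71 over MI 2, 3 and 4 and 2.18 in MI 1. The gel libraries had 1.96 to 2.98. The part of these lists in the levels of the 6 genes was not tested.

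As a log2 difference from the macrophage marker mean, Mmp12 lay between -0.51 and 1.75 in MI_soft and between 2.36 and 3.67 in MI_stiff. Ctsk lay between 0.57 and 1.21 in MI_soft and between 1.55 and 2.53 in MI_stiff, and Dcstamp between -5.97 and -5.05 against -3.89 and -2.56. These 3 of the 6 were separate between the gels on this scale, MI_stiff 2 included, which held for 3.1% of tested genes, whereas Ocstamp, Atp6v0d2 and Spp1 still overlapped. The separation of Mmp12 and Ctsk went with that choice of list: relative to 11 genes of lipid-laden macrophages (0.237% of tested genes separate) or to 12 fibroblast markers (9.44%), only Dcstamp was separate. Relative to the former, Mmp12 lay between -0.29 and 1.67 in MI_soft and between 1.15 and 2.65 in MI_stiff, and Dcstamp between -6.30 and -5.21 against -5.10 and -3.57.

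MI 1 was the untreated infarct with general macrophage markers at the level of the gel libraries. Its marker mean of 5.94 compares with 5.92, 5.95 and 5.87 in MI_stiff 1, 3 and 4. Over the genes of lipid-laden macrophages its mean was lower, at 6.07 beside 6.90, 6.97 and 6.89 in the same libraries. Its Mmp12 was 19.8 CPM where those 3 had at least 646, and its Dcstamp was 0.246 CPM where they had at least 4.99. Within MI, Ctsk and Spp1 were highest in MI 4. MI 2, 3 and 4, with markers at 4.30 to 4.43, had 85.0 to 112.8 CPM of Ctsk beside 97.4 in MI 1. They had 53.9 to 120 CPM of Spp1 beside 44.2 in MI 1. The comparison with the gel libraries rests on MI 1 alone and on genes selected for differences between these groups. The share of all tested genes with MI 1 below MI_stiff 1, 3 and 4 was not computed. The part of macrophage content in the levels of these genes was not tested.

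**Figure D3:**
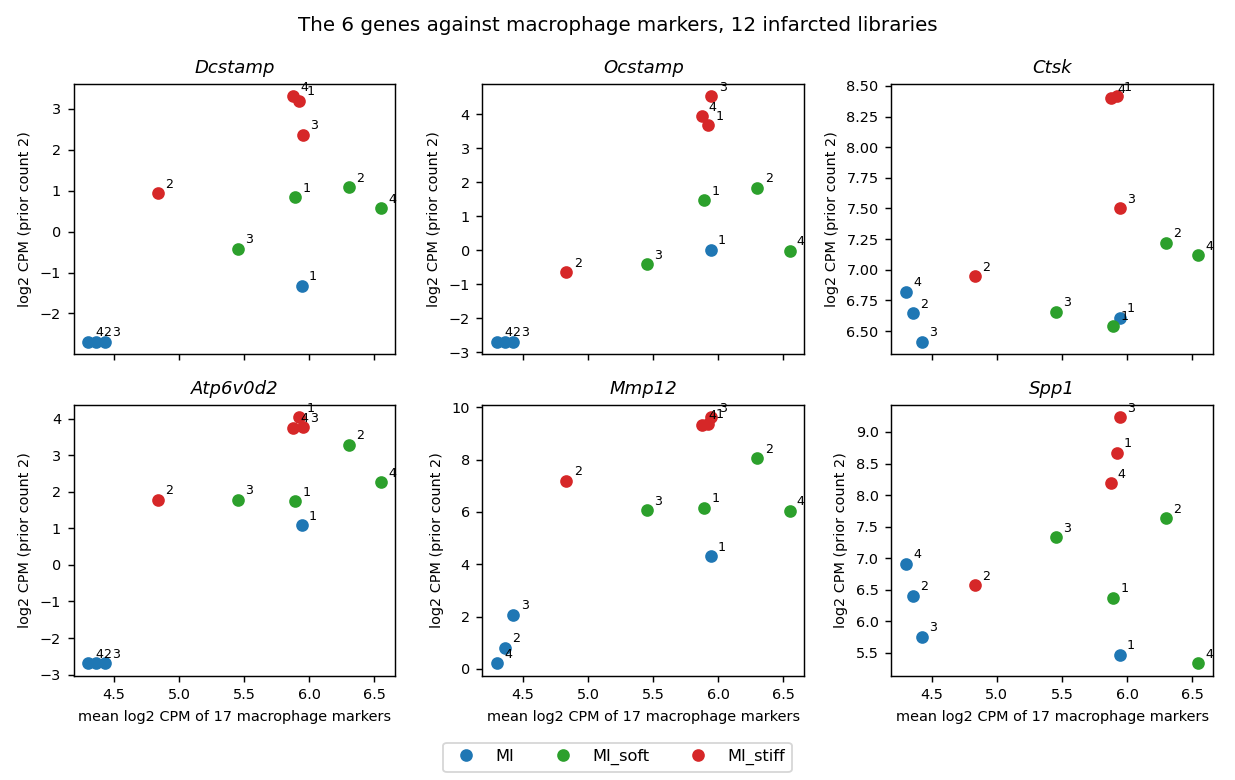
Log2 CPM (prior count 2) of each gene against the mean log2 CPM of 17 macrophage markers in the 12 infarcted libraries, coloured by group and numbered by replicate. At marker means near 5.9 the stiff-gel libraries 1, 3 and 4 lie above MI_soft 1 and MI 1 in all 6 panels.

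Genes of bone tissue differed widely between libraries of a group, and several were highest in MI_stiff 1. It had 22.7 CPM of Ibsp (297 counts), a bone matrix protein, where the other 3 libraries of the group had 0, 6 and 2 counts. It had 9.03 CPM of Mepe, an osteocyte product, with no count in the other 3, and 6.81 CPM of Bglap (osteocalcin), with at most 1 count in the others. Mmp13, the collagenase of bone and cartilage, was at 91.4 CPM there against 0, 0.774 and 0, and Mmp9, the gelatinase of osteoclasts, at 49.2 CPM against 1.13 to 8.999. Other groups held such counts at lower level: Ibsp was at 9.38 CPM (103 counts) in MI 4, 3.57 in MI_soft 3 and 1.87 in MI_soft 1. MI 4 also had 16 counts of Bglap, 18 of Mmp13 and 9 of Mepe, and was the MI library highest for Ctsk and Spp1. Dmp1, a matrix protein of osteocytes, was highest in MI 2, at 19.8 CPM beside 16.5 in MI_stiff 1. Over the 7 tested osteoblast and cartilage markers its mean log2 CPM was 3.50, the highest of MI_stiff (0.79 to 3.50), while MI_soft spanned 1.45 to 3.15, MI 0.96 to 2.98 with MI 4 highest, and Sham -0.23 to 0.45. The part of bone tissue in the levels of the 6 genes was not tested. MI_stiff 3 and 4 had Ibsp, Mepe, Bglap and Mmp13 at 11 counts or fewer. Their Mmp12 was at 785 and 646 CPM beside 665 in MI_stiff 1, and their Ocstamp at 23.1 and 15.2 CPM beside 12.6. Spp1 was at 600 and 292 CPM beside 408, and Dcstamp at 4.99 and 9.81 CPM beside 9.03. MI_stiff 1 was the highest of its group for Ctsk, at 342 CPM beside 181 and 338. It was also highest for Atp6v0d2, at 16.3 CPM beside 13.6 and 13.4. Without MI_stiff 1 the stiff-gel means were 526 CPM for Mmp12, 329 for Spp1, 214 for Ctsk, 10.1 for Atp6v0d2, 12.9 for Ocstamp and 5.52 for Dcstamp (n = 3).

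The wider set of 53 genes of fusion, osteoclast signalling and resorption, without the 6, had 49 with a row and 47 tested. Against Sham, 18 rose and 3 fell in MI, 18 rose and 2 fell in MI_soft, and 21 rose and 1 fell in MI_stiff, beside 36.6%, 26.1% and 21.2% of all tested genes called. The count in MI was near that background. Their median log2 difference in MI_stiff was 0.83 where that of all tested genes was 0.02. Among infarcted groups only Fos was called, an AP-1 subunit that fell by 1.84 ± 0.41 in MI_stiff against MI (adjusted p = 0.0391, edgeR). At an unadjusted p under 0.05 edgeR took 10 of the 47 in MI_soft against MI, 14 in MI_stiff against MI and 5 in MI_stiff against MI_soft, where the shares of all tested genes were 15.5%, 17% and 14.3%. DESeq2 called 4, 5 and 1, beside 3.64%, 5.13% and 3.19%. The single call was gone without any 1 of Sham 1, 2 or 3, MI 2, 3 or 4, MI_soft 1 or 2, or MI_stiff 2, 3 or 4, whereas 13 genes were called without MI 1 and 4 without MI_soft 4.

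Of 15 other fusion genes 8 rose and 0 fell in MI_stiff against Sham, where 21.2% of all tested genes were called, a share that stands beside each list below. Trem2, a lipid receptor of macrophages, rose by 4.19 ± 0.89 (adjusted p = 0.00258, edgeR) and its signalling partner Tyrobp by 2.93 ± 0.56. Adam8, a membrane protease of fusing macrophages, rose by 3.92 ± 0.81 (adjusted p = 0.00215, edgeR), and Cd44, a receptor for osteopontin, by 1.94 ± 0.29. By edgeR none of these passed the test against MI: Adam8 differed by 2.96 ± 0.76 (adjusted p = 0.0649) and Trem2 by 1.80 ± 0.78 (adjusted p = 0.25, both edgeR). DESeq2 did call Adam8 and Cd44 in MI_stiff against MI.

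Of 21 signalling genes 7 rose and 1 fell in MI_stiff against Sham. Tnfrsf11b, encoding osteoprotegerin, the secreted decoy that blocks RANKL, had the largest rise at 3.999 ± 0.47 (adjusted p = 1.82e-05, edgeR), with means of 2.10 CPM for Sham, 24.7 for MI, 12.2 for MI_soft and 33.4 for MI_stiff. Spi1, encoding PU.1, rose by 3.17 ± 0.55, Fcer1g, an adaptor of activating receptors, by 2.48 ± 0.57 and Csf1r, the receptor for the macrophage growth factor CSF1, by 1.87 ± 0.45. Mitf fell by 2.44 ± 0.73 (adjusted p = 0.0239, edgeR), from 11.7 CPM in Sham to 2.14 in MI_stiff. Its difference from Sham was -3.43 ± 0.77 in MI and -2.96 ± 0.75 in MI_soft, both called. Its difference in MI_stiff minus MI was 0.995 ± 0.74 and not called. Spi1, Fcer1g and Csf1r were also called higher in MI and MI_soft than in Sham. In MI they rose by 2.02 ± 0.535, 1.72 ± 0.56 and 1.64 ± 0.445. In MI_stiff against Sham the RANK gene Tnfrsf11a differed by 0.44 ± 0.51 and Nfatc1 by -0.58 ± 0.97, with neither called. Both were at or under 6 CPM in every library. The RANKL gene Tnfsf11 was not analysed here.

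Of 11 other resorption genes 6 rose and 0 fell in MI_stiff against Sham. Mmp9 rose by 4.06 ± 1.06 (adjusted p = 0.0108, edgeR), with most of its level in MI_stiff 1. Tcirg1, the a3 subunit of the osteoclast proton pump, rose by 2.08 ± 0.44, Snx10, a vesicle sorting protein, by 2.02 ± 0.66 and Slc4a2, an anion exchanger that balances acid secretion, by 1.37 ± 0.22. EdgeR called 0 of the 11 between infarcted groups, while at an unadjusted p under 0.05 it took 0 in MI_soft against MI, 3 in MI_stiff against MI and 3 in MI_stiff against MI_soft, all higher, beside 15.5%, 17% and 14.3% of all tested genes, and DESeq2 called 0, 2 and 0. The mean log2 CPM of the 11 was 3.24 to 3.80 over MI_soft and 3.89 to 4.51 over MI_stiff, with no overlap, but 4.13 in MI 1. Among single tested genes, 4.47% had every stiff-gel library above every soft-gel library. Tcirg1 differed by 0.87 ± 0.42 in MI_stiff minus MI. The gene of the classical osteoclast enzyme, Acp5, was not analysed here.

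Near relatives of the pump subunit, the proteases and osteopontin were followed in the same way. Of 16 other V-ATPase subunits 5 rose and 1 fell in MI_stiff against Sham. In MI_stiff against MI 1 rose, Atp6v1b2, by 1.204 ± 0.18 (adjusted p = 0.00676, edgeR), beside 1.19% of all tested genes called. At an unadjusted p under 0.05 edgeR took 3 in MI_soft against MI, 6 in MI_stiff against MI and 7 in MI_stiff against MI_soft. Of these 3, 4 and 5 were higher, and the shares of all tested genes were 15.5%, 17% and 14.3%. Of 10 other cathepsins and cystatins 8 rose in MI_stiff against Sham, among them Cst6 by 8.77 ± 1.28, Ctss by 3.37 ± 0.35, Ctsl by 1.64 ± 0.22 and Ctsb by 1.54 ± 0.22 (log2 ± SE), and 0 were called between infarcted groups by edgeR. At an unadjusted p under 0.05 it took 3 in MI_soft against MI, 4 in MI_stiff against MI and 6 in MI_stiff against MI_soft. Of these 2, 4 and 2 were higher, and the shares of all tested genes were 15.5%, 17% and 14.3%. DESeq2 called 1 in each, beside 3.64%, 5.13% and 3.19%. The inhibitor Cst3, cystatin C, was at 312 ± 21.4 CPM for Sham, 1038 ± 434 for MI, 1418 ± 847 for MI_soft and 689 ± 251 for MI_stiff (SD, n = 4 each). Timp1, an inhibitor of metalloproteinases, rose by 4.62 ± 0.42 in MI and 4.13 ± 0.42 in MI_stiff against Sham and differed by -0.49 ± 0.36 between these infarcts. Of the 13 tested metalloproteinases and their inhibitors without Mmp12, 10 rose and 1 fell in MI_stiff against Sham. Of 9 tested integrins and other partners of osteopontin 4 rose and 0 fell. Between infarcted groups edgeR called 0 of either list. At an unadjusted p under 0.05, in the same order of comparisons, it took 3, 7 and 5 of the 13, of which 2, 4 and 3 were higher. Of the 9 it took 4, 4 and 2, of which 3, 2 and 0 were higher.

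**Figure D4:**
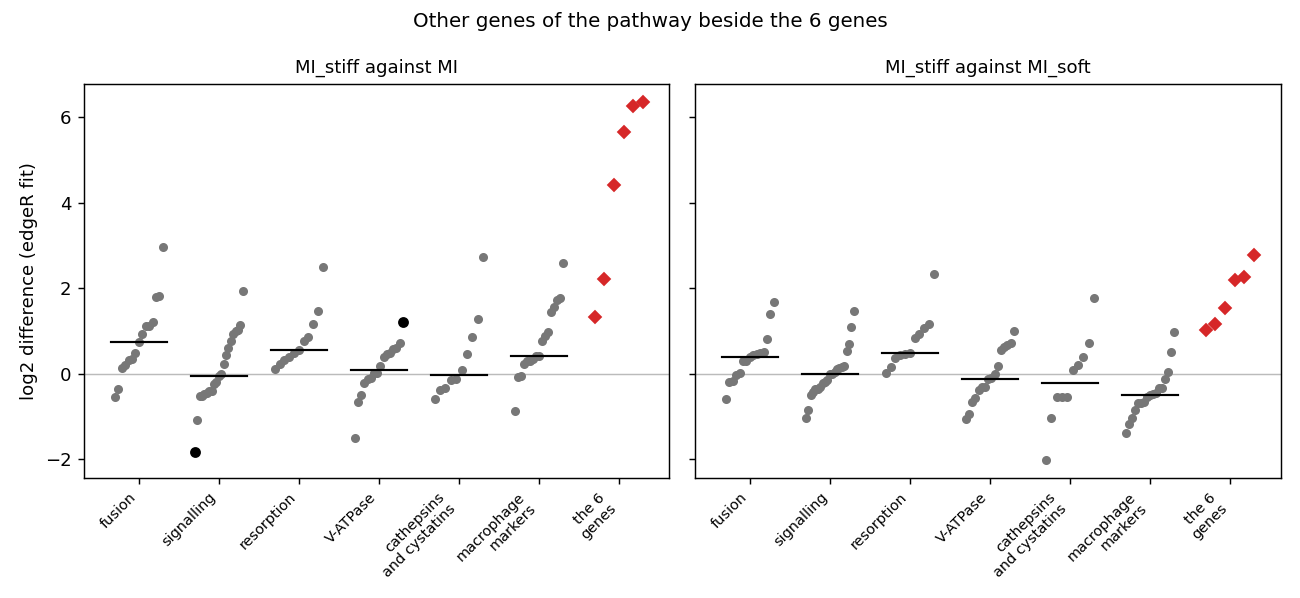
Log2 differences of other fusion, signalling, resorption, V-ATPase and cathepsin genes and of macrophage markers beside the 6 genes, for MI_stiff against MI (left) and against MI_soft (right); lines are list medians and black points were called by edgeR. The 6 genes were chosen for their differences, and lie between 1.32 and 6.37 against MI and between 1.03 and 2.78 against MI_soft.

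The genes whose levels ran most like each of the 6 over the 16 libraries were ranked by Pearson's r of log2 CPM, as a description, since the libraries share their groups and depth. For Dcstamp they were Tm4sf19 (r = 0.968), a tetraspanin-like membrane protein, Gpr143 (0.952) and Cldn4 (0.940), for Ocstamp Tm4sf19 (0.967), Itgb2 (0.955) and Lcp1 (0.952), and for Atp6v0d2 Cldn4 (0.987), Plet1 (0.986) and Itgb2 (0.979). Tm4sf19 measured 0.0237, 0.0922, 1.13 and 3.58 CPM on average in Sham, MI, MI_soft and MI_stiff. For Mmp12 they were Gpnmb (0.983), a glycoprotein of lipid-laden macrophages, Hk3 (0.971) and Cd53 (0.966). Of 11 tested genes of such macrophages edgeR called 1 in MI_stiff against MI, beside 1.19% of tested genes. It was Gpnmb, higher by 3.27 ± 0.47 (adjusted p = 0.00676, edgeR). At an unadjusted p under 0.05 edgeR took 5, of which 4 were higher, beside 17%. DESeq2 called 2, Gpnmb and Lgals3, both higher, beside 5.13%.

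Ctsk and Spp1 had other neighbours. Ctsk was followed by Cybc1 (0.969), Rab7b (0.968) and Fn1 (0.966), and Spp1 by Fn1 (0.969), Myof (0.968) and Bcat1 (0.965), where Fn1 encodes the matrix protein fibronectin. Among 11375 ranked genes, Ctsk and Spp1 were each 4th in the order of the other. Atp6v0d2 was 2nd and Ocstamp 3rd in the order for Dcstamp, while Ctsk was 155th and Spp1 221st. In the order for Spp1, Dcstamp stood 798th, Ocstamp 799th, Atp6v0d2 698th and Mmp12 102nd. Of 12 fibroblast markers 11 rose in MI, 10 in MI_soft and 10 in MI_stiff against Sham. The shares of all tested genes called were 36.6%, 26.1% and 21.2%. Ctsk and Spp1 also rose in these comparisons, as most macrophage markers did. In MI_stiff against MI, where Ctsk and Spp1 were higher, edgeR called 1 of the 12, beside 1.19% of tested genes. It was Fbln1, at -0.94 ± 0.19 (log2 ± SE, adjusted p = 0.0315, edgeR). At an unadjusted p under 0.05 edgeR took 4, all lower, beside 17%. The mean log2 CPM of the 12 was 5.82 to 6.22 in Sham and 8.32 to 8.84 in MI. It was 8.35 to 8.65 in MI_soft and 7.94 to 8.60 in MI_stiff. Which cells made the Ctsk and Spp1 counts, and the part of fibroblasts in them, was not tested.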

How the data were processed

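Rat infarct-zone mRNA was sequenced in 16 libraries, and the labels gave groups and replicate numbers. The authors deposited expected counts per gene and TPM for the same genes, made per the submitters' processing notes with STAR 2.7.3a and RSEM 1.3.1 on genome build rn7. The sources used here do not give the annotation or the strand setting, so antisense and overlapping genes cannot be separated. Values were rounded to whole numbers, which changed 0.785% of them.

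EdgeR 4.0.16 in R 4.3.3 removed genes with its filter by expression, scaled libraries by TMM and fitted a robust quasi-likelihood model with 1 coefficient per group to all 16 libraries. Benjamini-Hochberg adjustment ran over the 11376 genes left, and a call means an adjusted p under 0.05. Log2 CPM used a prior count of 2. Folds over a group without counts were set against 3 counts over that group, for counting error only. DESeq2 1.42.0, DESeq2 size factors in edgeR, no filter, fits of only the groups compared, a replicate block and leaving out each library in turn were alternatives. Leaving out libraries with few genes detected was added after seeing the data. The code was tested on simulated data.

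The 6 genes and the gene lists were chosen with earlier results of these data known. From each list up to 4 called genes of largest difference were named, with direct paralogues, ligands, receptors and inhibitors of the 6, and the 3 genes closest by correlation. The text describes the lists of the wider pathway, of macrophages, lipid-laden macrophages, lymphocytes, dendritic cells, smooth muscle, fibroblasts, cardiomyocytes, and osteoblasts and cartilage. Ibsp, Mepe, Bglap, Dmp1 and Mmp13 were named after their values were seen. Of 227 list genes 200 had a row.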

Additional observations from a re-analysis of the deposited data

Results flagged for a closer look

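In 5 of the 20 groups of 4 libraries tested, 1 library stood apart from the other 3 by Dixon's ratio, the gap to the nearest library over the whole range, which has a critical value of 0.829. Chance flags about 1 in 20 groups. In MI, MI 1 was the high library for Dcstamp, Ocstamp and Atp6v0d2, with a ratio of 1 each because the other 3 libraries were at 0, and for Mmp12 (0.8386). In MI_soft, MI_soft 2 was high for Mmp12 (0.9728). No difference between the effects of groups was tested.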

How the results depend on the processing

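The direction of each of the 6 genes held in each comparison and setting that gave a value. No value was had where both groups were at 0. Dcstamp, Ocstamp, Atp6v0d2 and Mmp12 had no count in Sham, so their direction against it could not turn in any setting. All 6 were selected on differences between these groups, so the held direction is a description. Against Sham, the lowest count of calls in any setting with either gel was 4 for MI_soft and 5 for MI_stiff with only the 2 groups fitted. In MI_stiff against MI, where 5 were called, 3 were called with no filter on low counts, 1 with only the 2 groups fitted and 0 under both settings without libraries of few detected genes. The fit with replicate number as a block called 2, but the numbers did not pair the libraries: 5 of 24 same-numbered pairs correlated above 0.1 (range -0.285 to 0.176), and the labels tie them to nothing shared. DESeq2 called 1 of the 6 in MI_soft against MI and 2 in MI_stiff against MI_soft, and of the wider genes 4 and 1, with 5 in MI_stiff against MI. With only the 2 groups fitted 0 wider genes were called in MI_stiff against MI. Without libraries under every Sham in genes detected, 2 wider genes were called in MI_stiff against MI and 2 in MI_stiff against MI_soft. The causes were not tested. With each library left out in turn, calls of the 6 ranged from 3 to 4 in MI against Sham, 0 to 4 in MI_soft against MI and 1 to 6 in MI_stiff against MI. Calls of the wider genes ranged from 13 to 27 in MI against Sham, 0 to 11 in MI_soft against MI and 0 to 13 in MI_stiff against MI. The fusion genes had at most 14 counts in any MI library, which limits the precision of their differences from MI.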
